A study of Mus musculus with 4 samples.

Results

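Malat1, Neat1, Meg3, H19, Gas5, Rmrp and Rpph1 are 7 long and structural noncoding RNAs of the mouse, listed by symbol among the 20929 condensed genes of the deposited exon table, by a rule that uses no measured value, although earlier results of these data were known when they were listed. Their reads, strands and start points were followed in 4 sequencing libraries of the intestine. All libraries were made from frozen total tissue of C57BL/6 mice of 9 to 10 weeks, with no allele or treatment added, so that cell types of the gut wall are mixed. The labels give small intestine and colon, for which the methods name jejunum and distal colon. For each tissue, 1 library was made from polyadenylated RNA by oligo-dT primed, template-switched cDNA synthesis followed by fragmentation of the cDNA (poly(A) cDNA), which does not keep the strand. For each tissue, another library was made by fragmentation of RNA and directional ligation of adapters, and its label gives RNA depleted of ribosomal RNA (rRNA-depleted), although the methods of the study describe polyadenylated RNA as input for this protocol. The numbers of reads deposited for these libraries also differ from those the study gives for its RNA fragmented libraries, so its methods may not describe them. The groups follow the labels. The comparison asks how far each RNA is seen by a protocol that depends on a poly(A) tail and by one that, as labelled, does not. The protocols differ in other steps as well. Per the methods, RNA for the cDNA protocol was isolated with an RNeasy kit, and cDNA ends were removed with streptavidin beads. RNA for the RNA fragmentation protocol was isolated with a mirVana kit. The part of these steps in the values of short RNAs was not tested.

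Rmrp and Rpph1 are the catalytic RNA components of RNase MRP and RNase P, the enzymes that process precursors of ribosomal and transfer RNA. They are made by RNA polymerase III, are highly structured and carry no poly(A) tail. Gas5 is a spliced, polyadenylated transcript whose introns contain box C/D small nucleolar RNAs (snoRNAs), which guide 2'-O-methylation of ribosomal RNA and are trimmed out of the intron without a tail. Malat1 and Neat1 are neighbouring, nuclear-retained long RNAs, of which Malat1 sits in nuclear speckles and Neat1 builds paraspeckles. The 3' end of Malat1 is cut by RNase P and protected by a triple helix in place of a poly(A) tail, whereas the short form of Neat1 is polyadenylated. Meg3 and H19 are imprinted, maternally expressed RNAs that are abundant before birth.

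The sequences of Rmrp, of Rpph1 and of the most read snoRNAs of Gas5 are shown because nearly all their reads came from 1 protocol, and those of Malat1 and Neat1 because reads change or pile up there. Sequences were read from the mm9 genome on the strand of the gene. Capitals mark the 35 bases under the most frequent read of the rRNA-depleted colon library, except in Malat1, where they mark the 20-base window with most A among the first 1500 bases. Rmrp is encoded at chr4:43505657-43505931 (minus), the stretch of Rpph1 at chr14:51427122-51427421 (minus), SNORD75 at chr1:162965981-162966042 (plus), SNORD44 at chr1:162966813-162966872 (plus), the stretch of Malat1 at chr19:5801728-5801827 (minus) and that of Neat1 at chr19:5842876-5842970 (minus).
Rmrp: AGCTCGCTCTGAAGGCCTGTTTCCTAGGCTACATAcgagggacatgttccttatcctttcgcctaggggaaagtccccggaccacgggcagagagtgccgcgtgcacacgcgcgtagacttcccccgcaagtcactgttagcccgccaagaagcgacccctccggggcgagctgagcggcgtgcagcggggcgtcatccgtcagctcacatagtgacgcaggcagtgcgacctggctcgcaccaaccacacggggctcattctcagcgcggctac
Rpph1, last 300 bases: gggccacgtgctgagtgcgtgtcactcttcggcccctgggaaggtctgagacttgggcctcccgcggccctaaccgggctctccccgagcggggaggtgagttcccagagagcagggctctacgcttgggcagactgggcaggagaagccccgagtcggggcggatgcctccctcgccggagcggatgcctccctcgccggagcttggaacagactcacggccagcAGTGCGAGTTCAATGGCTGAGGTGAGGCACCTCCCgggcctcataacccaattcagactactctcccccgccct
SNORD75 in Gas5: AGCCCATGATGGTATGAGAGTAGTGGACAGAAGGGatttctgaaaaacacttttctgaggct
SNORD44 in Gas5: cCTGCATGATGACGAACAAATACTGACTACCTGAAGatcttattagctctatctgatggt
Malat1, bases 845 to 944: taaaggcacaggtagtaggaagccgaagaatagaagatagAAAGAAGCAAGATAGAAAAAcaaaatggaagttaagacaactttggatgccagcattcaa
Neat1, around its most frequent start: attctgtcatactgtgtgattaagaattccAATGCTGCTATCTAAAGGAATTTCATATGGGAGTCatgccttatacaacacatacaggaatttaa

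The deposited reads had been matched to exons and junctions, and between 2035386 reads (rRNA-depleted small intestine) and 24798934 reads (poly(A) cDNA colon) were uniquely placed per library. Of the reads on named genes, 48.3% and 48.2% were sense in the poly(A) cDNA libraries of small intestine and colon, and 98.5% and 98.6% in the rRNA-depleted libraries. Levels are in RPKM, the reads per kilobase of exon scaled to 1000000 uniquely placed reads of the library. As there was 1 library per tissue and protocol, no replicate error can be given within a group, and no test was run. All intervals are at the 95% level, cover counting error only, and do not allow for amplified copies or for differences between mice. A gene was called higher when its RPKM divided by the RPKM of the other library plus 1 reached 3. Of 9 small intestine markers, 8 were called higher in small intestine in both protocols, against 2.15% of all genes by poly(A) cDNA and 2.78% by rRNA depletion. Of 9 colon markers, 6 were called higher in colon by poly(A) cDNA (against 2.52%) and 8 by rRNA depletion (against 4.77%). The poly(A) cDNA small intestine library stood apart, with 1752 Xist reads and 0 to 19 reads on each of 4 Y-linked genes, whereas the other 3 libraries held 5 to 31 Xist reads and 40 to 1191 reads on each Y-linked gene. The study describes both tissues as coming from the same individuals, and these reads differ between the poly(A) cDNA libraries of the tissues. Protocol and animals can therefore not be told apart in small intestine, nor tissue and animals by poly(A) cDNA. With 1 library per tissue and protocol, animals and samples cannot be told apart from tissue or protocol in the other comparisons either. Of 10 pancreatic acinar genes, Cela1 had 18.3, 544, 496 and 291 RPKM in poly(A) cDNA small intestine, poly(A) cDNA colon, rRNA-depleted small intestine and rRNA-depleted colon. The other 9 summed to 0.478, 528, 2972 and 9.06 RPKM in the same order, with 7, 1, 1 and 2 of them at 0 reads. The part of pancreatic RNA in the results was not tested.

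In small intestine, 5 members (Malat1, Neat1, Gas5, Rmrp and Rpph1) were called higher by rRNA depletion, against 8.95% of all genes, and 0 by poly(A) cDNA, against 6.19%. In colon, 4 (Malat1, Gas5, Rmrp and Rpph1) were called higher by rRNA depletion, against 9.7% of all genes, and 0 by poly(A) cDNA, against 6.08%. The median fold of rRNA-depleted over poly(A) cDNA was 34.0 in small intestine and 12.9 in colon over the 6 members with at least 20 reads in the pair, of which Rmrp and Rpph1 reach that number only through the rRNA-depleted library. The filter thus partly sets the medians of the members. Counted by start points, the distinct positions on either strand from which reads begin, these medians were 6.47 and 1.94, and with Gas5 taken without its snoRNAs they were 9.64 and 3.15. With sense reads only they were 90.0 and 40.7. Over all genes with at least 20 reads the median fold was 1.26 and 1.41 (log2 of 0.33 and 0.50). By start points the median of all genes was 0.905 and 0.970, and with sense reads only it was 2.32 and 2.73. Sense reads were still scaled to the reads of both strands. Of the called genes in all, 59.1% in small intestine and 61.5% in colon were higher by rRNA depletion, but 34.3% and 34.1% with median-of-ratios scaling and 41.4% and 40.7% with upper-quartile scaling.

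**Figure D1:**
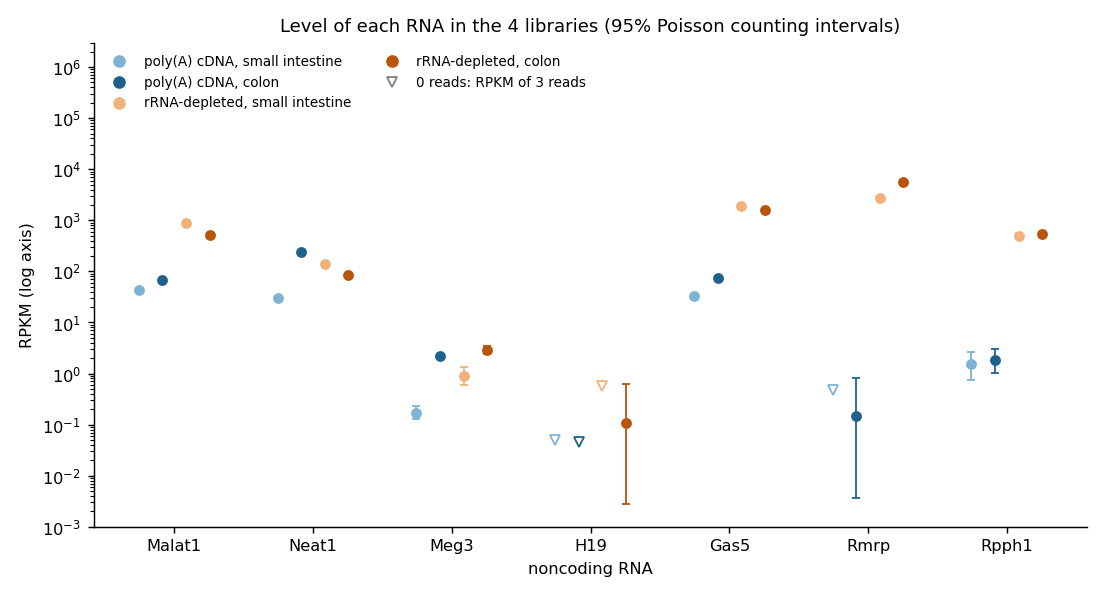
RPKM (log axis) of the 7 RNAs in the 4 libraries with 95% counting intervals, where an open triangle stands for 0 reads and is drawn at the level of 3 reads. Rmrp is at 2739 and 5504 RPKM in the rRNA-depleted libraries and at 0 and 0.147 in poly(A) cDNA, and Neat1 is the only 1 of the RNAs with at least 1 RPKM in every library whose highest value is in a poly(A) cDNA library.

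Rmrp and Rpph1 were the RNAs that separated the protocols most. The poly(A) cDNA libraries held 0 Rmrp reads in small intestine and 1 read in colon, on the antisense strand. In the rRNA-depleted libraries, 1533 reads were counted in small intestine, 2739 RPKM (2603 to 2879), and 5265 in colon, 5504 RPKM (5356 to 5655). Both rRNA-depleted values thus lay far above both poly(A) cDNA values. Against a floor of 3 reads, which is 0.485 RPKM for the count of 0, Rmrp was 5645-fold higher by rRNA depletion in small intestine. The lower limit of the interval for the count of 0 was 4585. In colon the ratio was 37537, with an interval of 6734 to 1482890 because it rests on 1 read. Rmrp is 1 exon of 275 bases, and Ccdc107 is annotated on the other strand from chr4:43505772-43508793. Ccdc107 had 313 and 697 reads by poly(A) cDNA and 14 and 33 by rRNA depletion, and every rRNA-depleted Rmrp read was sense.

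Reads of Rmrp covered 100% of its bases in both rRNA-depleted libraries and began at 108 start points in small intestine and 161 in colon. The first base of the RNA, where the capitals of the sequence begin, was the most frequent start in both tissues, with 329 reads in small intestine and 1399 in colon (21.5% and 26.6% of the reads). Bases 70 and 25 followed, with 232 and 172 reads in small intestine and 995 and 459 in colon. The same starts thus led in both tissues.

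Rpph1 showed the same order with fewer reads. It had 11 and 15 reads by poly(A) cDNA in small intestine and colon, 1.51 RPKM (0.751 to 2.69) and 1.86 RPKM (1.04 to 3.07). By rRNA depletion it had 331 and 610 reads, 500.4 RPKM (448 to 557) and 539.6 RPKM (498 to 584). The ratio of protocols was 332 (183 to 672) in small intestine and 290 (174 to 521) in colon, and the ratio of these ratios was 1.15 (0.521 to 2.52), so a difference between tissues was not detectable at this depth. By start points the ratio of protocols was 66.6 in small intestine and 38.6 in colon. Parp2, which is transcribed away from the neighbouring start, had 1748 and 2069 reads by poly(A) cDNA but 31 and 39 by rRNA depletion. Reads of Rpph1 (chr14:51427122-51427446, minus, 325 bases) concentrated at the 3' end, where 62.5% of the rRNA-depleted reads of small intestine and 71.8% of those of colon lay in the last 20% of the length, but 36.6% and 30.9% of the start points. The most frequent start was base 286 in small intestine (49 reads) and base 252 in colon (188 reads, 30.8%), the latter being the first capital of the sequence shown.

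Gas5 differed between protocols in kind as well as in amount. On its exon blocks (chr1:162965297-162968668, plus, 4 blocks of 2554 bases), 1907 and 4724 reads were counted by poly(A) cDNA in small intestine and colon, 33.2 and 74.6 RPKM. By rRNA depletion 9789 and 14454 reads were counted, 1883 and 1627 RPKM. The ratio of protocols was 56.7 (54.0 to 59.6) in small intestine and 21.8 (21.1 to 22.5) in colon. The first block, of 2382 bases, spans introns of Gas5, and 6 of the 9 snoRNAs that GENCODE M1 annotates in the gene have bases in the blocks.

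In the rRNA-depleted libraries, 9766 of the 9789 reads in small intestine and 14435 of the 14454 in colon had their midpoint in snoRNAs (99.8% and 99.9%), against 4.51% and 4.19% of the poly(A) cDNA reads. Exons were taken from the Gas5 transcript with most exons (12) among the 25 in GENCODE M1, and all other bases outside snoRNAs were counted as intron. These exons held 75.6% and 69.6% of the poly(A) cDNA reads, and the remaining intron 19.9% and 26.2%. Reads across the 6 Gas5 junctions numbered 23 and 47 by poly(A) cDNA and 0 and 1 by rRNA depletion. The poly(A) cDNA reads thus lay mostly in the exons of the host, and the rRNA-depleted reads almost wholly in the snoRNAs.

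When bases and reads of the snoRNAs were left out, a step chosen after the values had been seen, the direction turned. The remaining 2119 bases held 38.2 and 86.1 RPKM by poly(A) cDNA and 5.33 and 2.58 RPKM (23 and 19 reads) by rRNA depletion. Gas5 without snoRNAs was 7.17-fold higher by poly(A) cDNA in small intestine (4.76 to 11.3) and 33.4-fold in colon (21.4 to 55.5). The snoRNA bases alone were 1254-fold higher by rRNA depletion in small intestine (1015 to 1570) and 519.8-fold in colon (452 to 601).

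**Figure D2:**
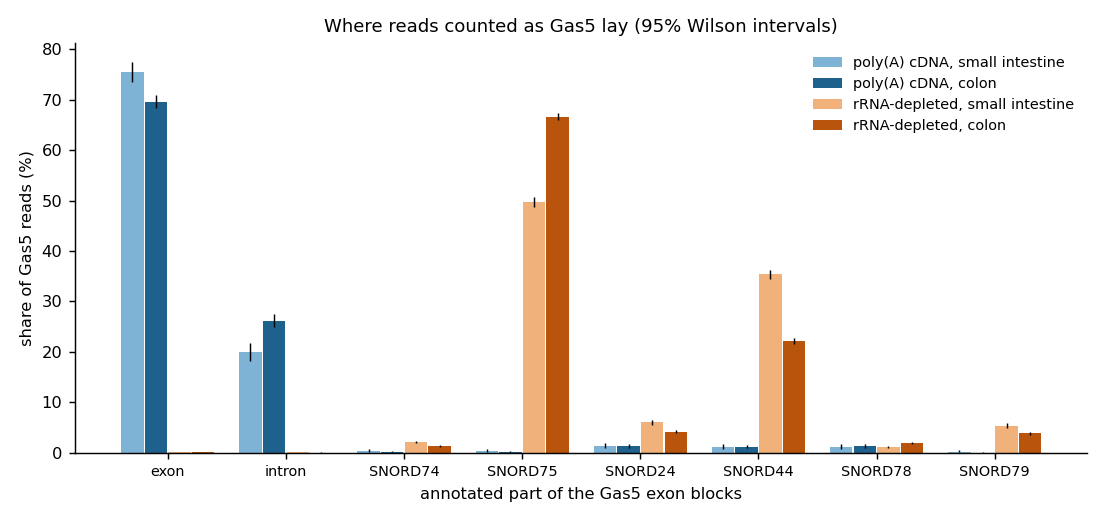
Percentage of Gas5 reads with their midpoint in exons of the transcript with most exons, in remaining introns and in snoRNAs, per library. Exons hold 75.6% and 69.6% of the poly(A) cDNA reads, and snoRNAs hold 99.8% and 99.9% of the rRNA-depleted reads.

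SNORD75 and SNORD44 led among the snoRNAs. SNORD75 held 4876 reads in rRNA-depleted small intestine and 9636 in colon (49.8% and 66.7% of Gas5 reads), and SNORD44 held 3462 and 3200 (35.4% and 22.1%). SNORD24, SNORD79, SNORD74 and SNORD78 held 588, 525, 206 and 109 reads in small intestine and 597, 553, 183 and 266 in colon. SNORD75 and SNORD78 had a higher share in colon, and the ratio of colon to small intestine per uniquely placed read ranged from 0.520 (SNORD74) to 1.43 (SNORD78) within 1 host gene. Most reads of SNORD75 began at its annotated first base, 3812 of 4876 in small intestine (78.2%) and 8645 of 9636 in colon (89.7%). SNORD44 was mostly read from its second base, with 1809 and 2096 reads. Gas5 therefore had 73.6 and 108 reads per start point by rRNA depletion, from 133 and 134 start points, against 2.54 and 3.58 by poly(A) cDNA, from 751 and 1321. Counted by start points, the ratio of protocols on the whole blocks was 1.66 in small intestine, which is not called, and turned to 0.583 in colon. Start points in the snoRNAs are bounded by their 435 bases, whereas poly(A) cDNA reads can begin on both strands of the 2554 bases.

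Malat1 (chr19:5795690-5802671, minus, 1 exon of 6982 bases) was higher by rRNA depletion in both tissues, and the poly(A) cDNA reads lay mostly at its 5' end. By poly(A) cDNA, 6818 reads were counted in small intestine, 43.4 RPKM (42.4 to 44.5), and 11551 in colon, 66.7 RPKM (65.5 to 67.9). By rRNA depletion, 12681 and 12366 reads were counted, 892 RPKM (877 to 908) and 509 RPKM (500.2 to 518). The lowest rRNA-depleted value lay well above the highest poly(A) cDNA value. The ratio of protocols was 20.5 (19.9 to 21.2) in small intestine and 7.63 (7.44 to 7.83) in colon, a ratio of ratios of 2.69 (2.59 to 2.80). The ratio of protocols was 10.7 in small intestine and 4.96 in colon by start points. With sense reads only it was 63.3 and 28.4, where the median ratio of all genes was 2.32 and 2.73.

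By poly(A) cDNA, 92.2% of Malat1 reads in small intestine and 87.7% in colon lay in the 5' 20% of its length, and 0.909% and 1.78% in the 3' 20%. By rRNA depletion, the 5' 20% had 10.8% and 4.26% of the reads and the 3' 20% had 29.5% and 43.2%. Counted by start points, the 5' 20% held 73.2% and 51.5% by poly(A) cDNA and 17.0% and 11.1% by rRNA depletion, and the 3' 20% held 3.09% and 7.66% against 17.8% and 23.3%. The rRNA-depleted reads covered 94.4% and 93.1% of the bases, and their longest uncovered stretch lay near the 3' end, at bases 6726 to 6982 in small intestine and 6676 to 6892 in colon. Among 2009 genes of at least 3000 bases with at least 100 reads in every library, the median share of the 5' 20% was 5.33% and 5.07% by poly(A) cDNA, and 99.9% and 99.8% of these genes had a lower share than Malat1. Malat1 thus ran against the 3' excess of the other long genes in these libraries, whose median share in the 3' 20% was 36.1% and 37.9%. By rRNA depletion the median share of the 5' 20% was 15.3% and 16.1%, and 27.2% and 5.28% of the genes lay below Malat1.

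After a dip at bases 601 to 700, the poly(A) cDNA reads recovered and then fell away at about base 900. Bases 1 to 600 held 869 reads per 100 bases in small intestine and 1440.5 in colon, and bases 601 to 700 held 69 and 99. In bases 601 to 700 the rRNA-depleted libraries also had few reads, 6 and 2. Per 100 bases, 431 reads in small intestine and 562.5 in colon lay in bases 701 to 900, but 30.5 and 45.5 in bases 901 to 1100. The rRNA-depleted libraries had 175.5 and 32.5 reads per 100 bases before this point and 162.5 and 56.5 after it. The 20-base window with most A among the first 1500 bases, with 14 A, spans bases 885 to 904 and is the stretch printed in capitals above. Whether oligo-dT primed within it was not tested. The richest window of the whole RNA, with 17 A, lies near the 3' end at bases 6673 to 6692 and includes a run of 12 A.

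Split at base 900, a border chosen after the profile had been seen, the first part of Malat1 held 303.6, 442, 313 and 48.2 RPKM in poly(A) cDNA small intestine, poly(A) cDNA colon, rRNA-depleted small intestine and rRNA-depleted colon. In small intestine the ratio of protocols there was 1.03 (0.944 to 1.12), whereas in colon poly(A) cDNA was 9.17-fold higher. The former value averages opposite differences. In small intestine, bases 1 to 600 held 5212 poly(A) cDNA and 216 rRNA-depleted reads, and bases 701 to 900 held 862 and 351. Scaled to the uniquely placed reads of the library, poly(A) cDNA was higher in the former bases and rRNA depletion in the latter. From base 901 on, the values were 4.94, 11.2, 978 and 577 RPKM in the same order. The ratio of protocols over this part was 198 (183 to 214) in small intestine and 51.7 (49.1 to 54.4) in colon.

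**Figure D3:**
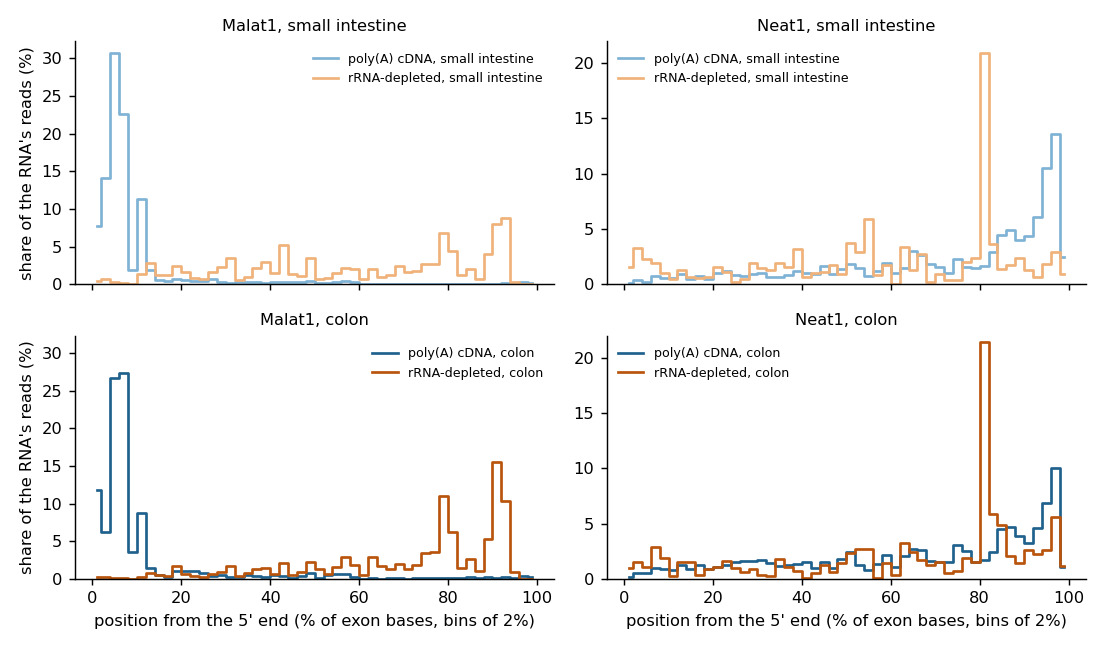
Percentage of the reads of Malat1 and of Neat1 in bins of 2% of the exon bases, from the 5' to the 3' end, for the libraries of small intestine (top) and colon (bottom). In Malat1 the poly(A) cDNA reads lie before base 900 (90.1% and 85.4%) and the rRNA-depleted reads lie beyond it, with 4.52% and 1.22% before, and in Neat1 the highest rRNA-depleted bin holds the reads that begin at base 2539.

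The strands were unevenly read in Malat1 by poly(A) cDNA. Of those of Malat1, 32.5% (31.4% to 33.6%) were sense in small intestine and 26.8% (26.0% to 27.7%) in colon, whereas over 3233 genes with at least 100 reads in every library the median was 49.1% and 49.0%. The share of these genes with a lower value was 0.0928% in small intestine and 0% in colon. Gas5 had 43.7% and 37.0% sense, with 5.82% and 1.64% of the genes lower, but 51.1% and 49.7% by start points. In the first 900 bases of Malat1, 31.1% and 24.1% were sense, and beyond them 45.0% and 43.2%. Counted by start points, which give each position 1 vote, the shares of Malat1 were 45.1% and 41.7%, closer to even. In the rRNA-depleted libraries, 2 of 12681 reads in small intestine and 0 of 12366 in colon were antisense. Gm20417 is annotated on the other strand at chr19:5797562-5798549, outside the first 900 bases, and in poly(A) cDNA its reads cannot be told from those of Malat1. The most frequent rRNA-depleted start was base 6372, with 513 reads in small intestine (4.05%) and 1049 in colon (8.48%).

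Neat1 was the member whose order turned between tissues. On the block of the short form (chr19:5842302-5845478, minus, 3177 bases), 2147 reads were counted by poly(A) cDNA in small intestine, 30.1 RPKM (28.8 to 31.4), and 18639 in colon, 237 RPKM (233 to 240.0). By rRNA depletion, 884 reads gave 137 RPKM (128 to 146) in small intestine and 937 reads gave 84.8 RPKM (79.4 to 90.4) in colon. The poly(A) cDNA colon library was thus the highest and the poly(A) cDNA small intestine library the lowest of the 4. Neat1 was 4.55-fold higher by rRNA depletion in small intestine (4.20 to 4.92) and 2.79-fold higher by poly(A) cDNA in colon (2.61 to 2.98). The ratio of these ratios was 12.7 (11.5 to 14.1). Median-of-ratios scaling ends the call in small intestine, with a ratio of 2.98. In colon Neat1 was 4.30-fold higher by poly(A) cDNA with that scaling and 3.86-fold with upper-quartile scaling, and was called with each. Start points are bounded by the 3177 bases of the block, on both strands by poly(A) cDNA but on the sense strand alone by rRNA depletion. The poly(A) cDNA colon library had 4717 of them. Counted by start points, Neat1 was 2.35-fold higher by rRNA depletion in small intestine, which also ends the call. In colon it was 2.13-fold higher by poly(A) cDNA. With sense reads only, which raises the median log2 ratio of all genes by 0.88 in small intestine and 0.95 in colon, these values were 10.2-fold by rRNA depletion and 1.21-fold by poly(A) cDNA. As GENCODE M1 gives the gene 20771 bases (chr19:5824708-5845478), the block holds 5' bases that both forms share, and the forms cannot be told apart.

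By poly(A) cDNA, Neat1 was read along its whole block. At least 99.6% of the block was covered in either poly(A) cDNA library and 93.2% and 93.6% by rRNA depletion. The former rest on 2147 and 18639 reads and the latter on 884 and 937, and the part of read number was not tested. The 3' 20% held 54.8% and 43.0% of the poly(A) cDNA reads and 37.6% and 49.7% of the rRNA-depleted reads, or 43.5%, 23.8%, 25.5% and 31.4% of the start points in the same order. Of the 2009 long genes above, 80.8% and 59.6% had a lower share of reads there by poly(A) cDNA, and 95.8% and 98.2% by rRNA depletion. Base 2539, the first capital of the sequence shown, was the most frequent rRNA-depleted start, with 134 reads in small intestine (15.2%) and 149 in colon (15.9%). Sense reads were 44.4% and 43.3% by poly(A) cDNA and 100% in both rRNA-depleted libraries.

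Meg3 (chr12:110779206-110809938, plus, 11 blocks of 12904 bases) had at most 2.85 RPKM in every library and was higher in colon in both protocols. It had 50 and 693 reads by poly(A) cDNA, 0.172 RPKM (0.128 to 0.227) in small intestine and 2.17 RPKM (2.01 to 2.33) in colon. By rRNA depletion it had 24 and 128 reads, 0.914 RPKM (0.585 to 1.36) and 2.85 RPKM (2.38 to 3.39). Of all genes, 35.3% and 55.4% had a lower RPKM by poly(A) cDNA in small intestine and colon, and 42.0% and 50.8% by rRNA depletion. Colon over small intestine was 12.6 (9.42 to 17.1) by poly(A) cDNA and 3.12 (2.01 to 5.05) by rRNA depletion, neither of which was called, as the values lie close to the penalty of 1 RPKM. With at most 1 color mismatch the former was 20.4. By poly(A) cDNA, Meg3 was called higher in colon with a penalty of 0.1 RPKM and by start points (ratio of 13.8). Between protocols the ratio was 5.30 (3.12 to 8.79) in small intestine and 1.32 (1.08 to 1.59) in colon, also not called. In small intestine it was 9.68 with at most 1 color mismatch. With a penalty of 0.1 RPKM Meg3 was called higher by rRNA depletion in small intestine, and the order in colon turned with median-of-ratios scaling (0.855), upper-quartile scaling (0.952) and start points (0.758). Markers of smooth muscle and of enteric neurons moved with the tissue as well. The 7 smooth muscle genes summed to 305, 1276, 247 and 2436 RPKM and the 7 neuronal genes to 12.5, 31.4, 9.27 and 46.8 RPKM in poly(A) cDNA small intestine, poly(A) cDNA colon, rRNA-depleted small intestine and rRNA-depleted colon, and their part in the Meg3 difference was not tested. In whole tissue, fewer cells of a type and less RNA per cell cannot be told apart.

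The blocks of Meg3 were unequally read. The longest block, of 9960 of the 12904 bases, held 30 of 50 reads in poly(A) cDNA small intestine, 292 of 693 in poly(A) cDNA colon, 10 of 24 in rRNA-depleted small intestine and 23 of 128 in rRNA-depleted colon. Thus 40.0%, 57.9%, 58.3% and 82.0% of the reads fell outside it, in the same order. The RPKM values and calls of Meg3 count the bases of this block and depend on it, and no level without it was calculated. Gm17639 is annotated over the last block on the other strand, where poly(A) cDNA had 4 and 135 reads and rRNA depletion 0 and 6.

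H19 (chr7:149761437-149764051, minus, 2615 bases) was practically not read. It had 0 reads in 3 libraries, with upper limits of 0.0627 RPKM in poly(A) cDNA small intestine, 0.0569 in poly(A) cDNA colon and 0.693 in rRNA-depleted small intestine. The rRNA-depleted colon library held 1 read, 0.110 RPKM (0.00278 to 0.613). No difference between libraries was detectable. Igf2, the imprinted neighbour of H19 that encodes a fetal growth factor, had 21 and 17 reads by poly(A) cDNA and 54 and 45 by rRNA depletion, with RPKM values of 0.226, 0.166, 6.42 and 3.13. It was the 1 of 6 imprinted neighbours called higher by rRNA depletion in small intestine (against 8.95% of all genes), and the only 1 with at least 20 reads in a pair.

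**Figure D4:**
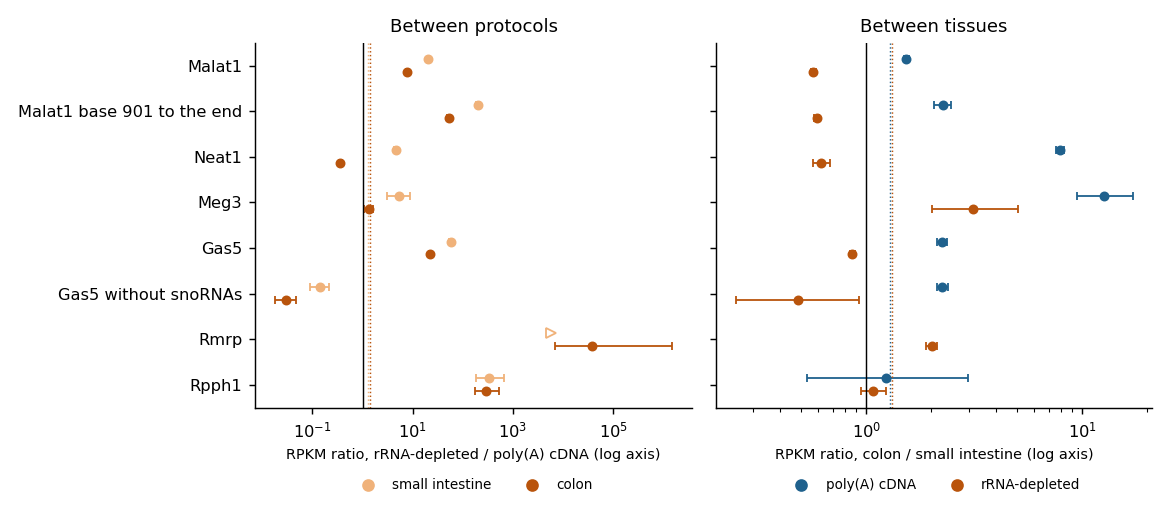
Ratio of rRNA-depleted to poly(A) cDNA RPKM and of colon to small intestine RPKM (log axes) for 6 members (H19 left out), for Malat1 from base 901 and for Gas5 without snoRNAs, with 95% counting intervals, an open triangle for a ratio against 3 reads, and a dotted line for the median of all genes with at least 20 reads. Neat1 lies above 1 in small intestine (4.55) and below 1 in colon (0.358).

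Between tissues, the protocols gave different orders for the abundant members. By poly(A) cDNA, Neat1 alone was called higher in colon (1 of 7, against 2.52% of all genes), with a ratio of 7.87 (7.53 to 8.23) by reads and 3.13 by start points, and 0 members were called higher in small intestine, against 2.15%. By rRNA depletion, 0 members were called higher in colon, against 4.77% of all genes, and 0 in small intestine, against 2.78%. Malat1 had a ratio of colon to small intestine of 1.54 (1.49 to 1.58) by poly(A) cDNA and of 0.571 (0.557 to 0.585) by rRNA depletion. Neat1 had 0.620 (0.565 to 0.681) by rRNA depletion. Gas5 had 2.25 (2.13 to 2.37) by poly(A) cDNA and 0.864 (0.842 to 0.887) by rRNA depletion. Rmrp had 2.01 (1.90 to 2.13) by rRNA depletion, but 0.871 when start points were counted in place of reads. As start points are bounded by the 275 bases of Rmrp, the latter value cannot settle the order. Rpph1 had 1.08 (0.942 to 1.24), an interval that holds 1, and its order turned with both other scalings (0.853 and 0.907), with start points (0.774) and with at most 1 color mismatch (0.834). The median ratio over all genes was 1.29 by poly(A) cDNA and 1.31 by rRNA depletion (log2 of 0.37 and 0.40), and of the calls 54.0% and 63.2% were higher in colon. With median-of-ratios scaling these shares were 41.5% and 43.8%, and with upper-quartile scaling they were 46.9% and 48.9%.

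Over the 4 libraries, 8232 genes had at least 20 reads in each. The genes with the profile most like a member, by the Euclidean distance of log2(RPKM + 0.1) values centred on their mean, were Scaf4 (0.123) and Vegfa (0.155) for Malat1, Ppm1j (0.580) and Oas2 (0.584) for Neat1, Aim2 (0.210) and Nrbp2 (0.428) for Meg3, and Srebf1 (0.303) and Zbtb7b (0.332) for Gas5. All of them encode proteins.

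Other small structural RNAs were likewise higher by rRNA depletion. Of 21 listed, 9 were found in the exon table, and 9 of 9 were called higher by rRNA depletion in each tissue (against 8.95% of all genes in small intestine and 9.7% in colon), with summed expression of 1.77 and 2.34 RPKM by poly(A) cDNA and 1936 and 3573 RPKM by rRNA depletion. Some of these calls rest on few rRNA-depleted reads, down to 1 in either tissue. Scarna6, a guide RNA of Cajal bodies, had 0 reads in either poly(A) cDNA library and 595 and 1301 RPKM by rRNA depletion. Against a floor of 3 reads it was 1101-fold higher in small intestine and 2657-fold in colon, with lower limits of 890 and 2157 for the count of 0. Scarna13 had the smallest ratio of those with enough reads, 88.4 (40.2 to 229.8) and 114 (58.4 to 255). Replication-dependent histone genes have mRNAs that end in a stem-loop in place of a poly(A) tail. By rRNA depletion, 21 of 40 were called higher in either tissue (against 8.95% and 9.7% of all genes). By poly(A) cDNA, 1 was called higher in small intestine and 0 in colon (against 6.19% and 6.08%). The lists hold genes that reach 20 reads only through the rRNA-depleted library, so no median ratio is given for them. The lowest were Hist1h2bc in small intestine, 3.88-fold higher by poly(A) cDNA, and Hist3h2a in colon, 3.13-fold higher.

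Of 15 host genes of other snoRNAs listed, 10 were found, of which 0 were called higher by rRNA depletion and 4 in small intestine and 5 in colon were called higher by poly(A) cDNA (median log2 ratios of -1.06 and -1.61). The shares over all genes were 8.95% and 9.7% by rRNA depletion and 6.19% and 6.08% by poly(A) cDNA. The highest ratios among these hosts were 2.03 for Snhg7 in small intestine and 1.02 for Snhg1 in colon. Snhg3 had 1 read by rRNA depletion and 308 by poly(A) cDNA in small intestine, a 27.9-fold difference (4.97 to 1105), and Snhg12 had 1 and 180 reads in colon, 25.2-fold (4.47 to 1003). Gas5 without its snoRNAs was likewise called higher by poly(A) cDNA. Of the 10 protein subunits of RNase P and RNase MRP, 6 in small intestine and 3 in colon were called higher by poly(A) cDNA (against 6.19% and 6.08% of all genes) and 0 by rRNA depletion (against 8.95% and 9.7%), whereas the RNA subunits Rpph1 and Rmrp were called higher by rRNA depletion. Pop1, the largest subunit, had the highest ratio (4.73 in small intestine, 5.35 in colon). Rpp30 was 9.00-fold higher by poly(A) cDNA in small intestine, and Rpp21 was 7.75-fold higher in colon.

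Of 22 other long noncoding RNAs listed, 11 were found. In small intestine, 0 were called higher by rRNA depletion and 1, Xist, by poly(A) cDNA (against 8.95% and 6.19% of all genes), Xist being the RNA in which this library stood apart. In colon, 1 (Rian) was called higher by rRNA depletion and 0 by poly(A) cDNA (against 9.7% and 6.08%), so both counts are near those of all genes. Their median log2 ratio was 0.57 in small intestine and 0.17 in colon over 9 genes with enough reads, close to the 0.33 and 0.50 of all genes. Miat, a nuclear RNA, had the highest ratio in small intestine, 14.1 (8.12 to 24.9), but from 25 and 32 reads. Rian, which lies downstream of Meg3 in the same imprinted cluster, had 1.72 RPKM by poly(A) cDNA and 14.8 by rRNA depletion in colon, a ratio of 8.57 (6.88 to 10.7). Of 10 paraspeckle proteins, which bind Neat1, 3 were called higher by rRNA depletion in either tissue (against 8.95% and 9.7% of all genes). By poly(A) cDNA, 0 of them were called higher (against 6.19% and 6.08%). Smarca4 had the highest ratio in small intestine (16.8-fold). Of 18 ubiquitous polyadenylated mRNAs, 3 in small intestine and 6 in colon were called higher by poly(A) cDNA (against 6.19% and 6.08% of all genes). By rRNA depletion, 1 and 0 were called higher (against 8.95% and 9.7%), the former being Polr2a (8.62-fold).

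**Figure D5:**
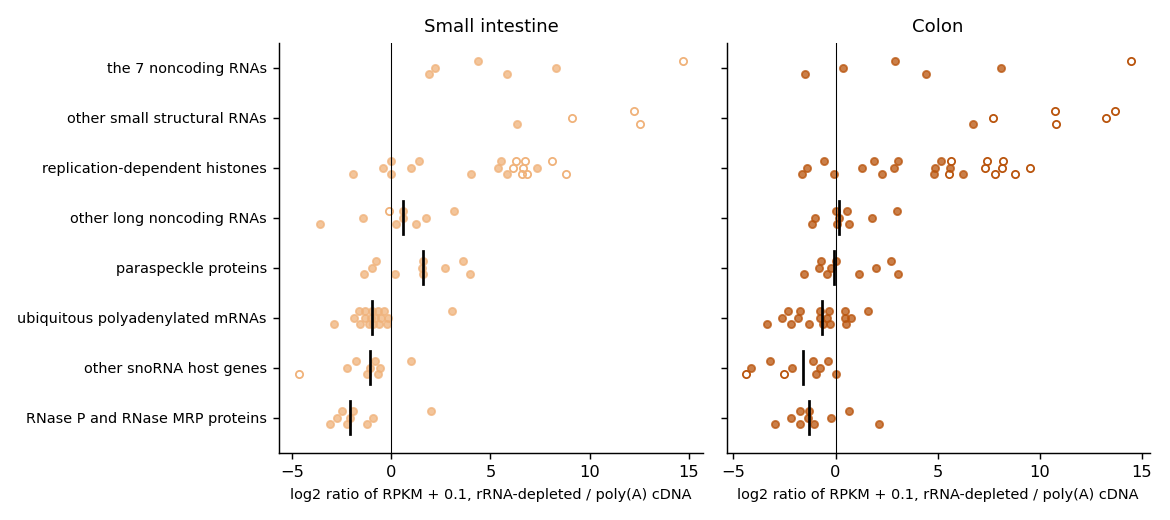
Log2 ratio of rRNA-depleted to poly(A) cDNA RPKM (0.1 RPKM added) of single genes with at least 20 reads, by gene list and tissue. Open points have at most 3 reads in a library and depend on the added value, and a line marks the median of the lists other than members, small structural RNAs and histones (-1.06 and -1.61 for snoRNA host genes).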

How the data were processed

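The authors deposited matched SOLiD reads of 4 libraries (1 per tissue and protocol). Per the labels and the methods, 35 colors per read had been matched to merged RefSeq exons of mm9 and to exon-exon junctions with up to 3 color mismatches, and reads with 1 placement were kept. Uniqueness refers to exons and junctions alone, and similar sequence elsewhere in the genome was not considered. The deposited cells hold positions and mismatches, no normalized values. The deposited reports name a corona matching run, whose version is not given in the sources used here. The methods describe another matching, with BioScope to the whole genome, which was not used here.

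Reads were assigned by start position to exons (3 bases of overhang tolerated) and placed along a gene by their midpoint, and exons sharing a junction were joined into 20929 condensed genes named by GENCODE M1. RPKM was calculated per 1000000 uniquely placed reads, of which there were 22484041 and 24798934 in poly(A) cDNA small intestine and colon and 2035386 and 3478387 in the rRNA-depleted libraries. Without replicates no test was run. Counts carry exact Poisson, shares Wilson and ratios exact conditional 95% intervals. Where the divisor held 0 reads, a ratio was set against a floor of 3 reads, whereas calls kept the count of 0. Medians of ratios were taken after adding 0.1 RPKM to both values. A gene was called at a ratio of at least 3 with a penalty of 1 RPKM in the divisor.

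The members and lists were chosen with earlier results of these data known. All members are named. Of each list, the genes with the highest and lowest protocol ratio among those with at least 20 reads in the pair could be named, and for each member the 2 genes with the most similar profile. Alternatives were median-of-ratios and upper-quartile scaling, at most 1 mismatch, start points in place of reads, sense reads only, a penalty of 0.1 RPKM and a 2-fold threshold. Gas5 without snoRNAs and Malat1 beyond its first 900 bases were added after the data had been seen. Procedures were tested on simulated data. Python 3.11.15, NumPy 2.4.6, SciPy 1.17.1, pandas 2.3.3, pysam 0.24.0, samtools 1.23.1 and Matplotlib 3.10.9 were used.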

Additional observations from a re-analysis of the deposited data

Results flagged for a closer look

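The tissue order of Malat1, Neat1 and Gas5 differed between the protocols, each of which had 1 library per tissue, and the difference was not tested against replicates. The ratio of colon to small intestine of Malat1 was 1.54 by poly(A) cDNA and 0.571 by rRNA depletion. For Neat1 it was 7.87 and 0.620, and for Gas5 2.25 and 0.864. The Gas5 value by rRNA depletion is almost wholly one of snoRNA reads. Without snoRNAs the Gas5 ratio was 2.25 and 0.483 (0.249 to 0.928), the latter from 19 reads in colon and 23 in small intestine. The ratio of rRNA-depleted to poly(A) cDNA of Neat1 was 4.55 in small intestine and 0.358 in colon, which was likewise not tested. The poly(A) cDNA tissue ratios and the Neat1 protocol ratio in small intestine use the poly(A) cDNA small intestine library, which stood apart in its Xist and Y-linked reads, and the part of that library was not tested. The other ratios do not use it, but with 1 library per tissue and protocol, animals cannot be told apart from tissue or protocol there either.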

How the results depend on the processing

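No fit with the replicate number as a block was possible because the labels carry no replicate numbers. A fit of tissue with protocol as a block was not run. With start points in place of reads, 3 members (Malat1, Rmrp and Rpph1) instead of 5 were called higher by rRNA depletion in small intestine, against 6.89% of all genes. By start points, 2 (Neat1 and Meg3) instead of 1 were called higher in colon by poly(A) cDNA, against 2.81%. The log2 ratio of protocols of Gas5 in colon turned to -0.78 by start points. Without the snoRNAs, 1 member (Gas5) instead of 0 was called higher by poly(A) cDNA in either tissue, against 6.19% and 6.08% of all genes. Its log2 ratios were -2.84 in small intestine and -5.06 in colon. Median-of-ratios scaling ended the Neat1 call by rRNA depletion in small intestine, where it called 5.55% of all genes. A penalty of 0.1 RPKM added a Meg3 call there and called 18.5% of all genes. Median-of-ratios scaling, upper-quartile scaling and the 2-fold threshold each called 1 member (Neat1) instead of 0 higher by poly(A) cDNA in colon. The shares of all genes were 9.42%, 8.55% and 9.82% in the same order. By poly(A) cDNA, a penalty of 0.1 RPKM (Neat1 and Meg3) and the 2-fold threshold (Neat1 and Gas5) each called 2 members instead of 1 higher in colon. The shares of all genes were 6.63% and 6.33%. By rRNA depletion the 2-fold threshold called 1 (Rmrp) instead of 0 higher in colon, against 11.3% of all genes. The Rmrp ratio of tissues was 0.871 by start points, which are bounded by its 275 bases.

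Pooled sense shares of the members, 36.8%, 37.2%, 99.99% and 99.997% in poly(A) cDNA small intestine and colon and rRNA-depleted small intestine and colon, became 29.5%, 32.8%, 100% and 100% with at most 1 mismatch and 46.8%, 47.1%, 99.9% and 99.97% by start points. In the first library, 4089 start points became 2722 with at most 1 mismatch. The share of Malat1 reads in the 5' 20% became 73.2%, 51.5%, 17.0% and 11.1% by start points, and 9.84% and 3.84% in the rRNA-depleted libraries with at most 1 mismatch.

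Against the main scaling, the median log2 ratio of all genes shifted by -0.59 and -0.60 between protocols and by -0.30 and -0.33 between tissues with median-of-ratios scaling. Genes called higher by rRNA depletion numbered 1874 in small intestine and 2031 in colon, but 1161 and 1019 with that scaling, 3864 and 3893 with the penalty of 0.1 RPKM, 3209 and 3602 at 2-fold, and 3349 and 3916 with sense reads only. In colon they numbered 1231 with upper-quartile scaling and 1223 by start points. Genes called higher by poly(A) cDNA numbered 1295 and 1272, but 2222 and 1972 with median-of-ratios scaling, 2228 and 2055 at 2-fold, 430 and 445 with sense reads only, and 2098 in small intestine with the penalty of 0.1 RPKM. Between tissues, 528 genes were higher in colon and 450 in small intestine by poly(A) cDNA, but 1387 and 700 with the penalty of 0.1 RPKM and 1325 and 741 at 2-fold. By rRNA depletion they numbered 998 and 582, but 2605 and 1233, and 2363 and 1085, in the same order, and 567 and 654 were higher in colon with median-of-ratios and upper-quartile scaling. The causes were not tested. Depth limits H19, Meg3 and the poly(A) cDNA values of Rmrp and Rpph1, which rest on few reads.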
